A study of Mus musculus with 3 samples.

Results

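The replication-dependent histone genes are the gene copies that supply most histone protein while a cell copies its DNA. They were taken here as the genes with a protein-coding transcript whose symbol begins with Hist1h, Hist2h, Hist3h or Hist4h. By this rule 67 of 55536 annotated genes were members, and all 67 were found in the gene tables of the 3 libraries. Hist1h2aj, Hist1h2al and Hist3h2bb-ps, with no protein-coding transcript, were left out. The members encode 6 linker histones (H1) and 18 H2A, 18 H2B, 12 H3 and 13 H4 core histones. Of these, 54 lie in the Hist1 cluster (mm10 chr13:21715763-23934851), 10 in Hist2 (chr3:96219865-96270132), 2 in Hist3 (chr11:58948920-58956830) and 1, Hist4h4, on chr6:136801553-136804415.

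The libraries hold RNA of the chromatin fraction of bone marrow-derived macrophages, primary cells of C57BL/6J mice. All cells had received Lipid A, the part of bacterial lipopolysaccharide that Toll-like receptor 4 recognises, at 100 ng/ml for 40 min, and sex and age are not recorded. Ribosomal RNA was depleted and total RNA was sequenced in 3 biological replicates. The starting RNA was 1 µg in replicate 1, 250 ng in replicate 2 and 500 ng in replicate 3. The replicates are separate biosamples under 1 donor entry, so p-values measure the spread between these libraries, and an unstimulated group was not analysed here.

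Histones wrap DNA into nucleosomes, and the genes described here are transcribed mainly in S phase, when new chromatin is assembled. Their messages have no introns and usually end in a conserved stem-loop in place of a poly(A) tail. The stem-loop is bound by the stem-loop binding protein, and the U7 small nuclear ribonucleoprotein guides the cut just downstream of it. Cells outside S phase hold little of these messages, while replacement histones from other genes are made throughout the cell cycle from messages with poly(A) tails.

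The annotated transcripts show the stem-loop as a pair of 6-base stems, in capitals below, around a 4-base loop. The highest gene of each class in the gene tables is printed with 5 flanking bases on each side, or as many as the transcript has. Beside them stand Hist3h2a, which had the most counts there, and Hist1h4b, which has another stem. Coordinates are mm10 and cover the 16 bases of the stem-loop, in the 3′ untranslated region of each gene.
Hist1h1c (H1, chr13:23739512-23739527, plus strand): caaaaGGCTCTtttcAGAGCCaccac
Hist2h2ac (H2A, chr3:96220418-96220433, minus strand): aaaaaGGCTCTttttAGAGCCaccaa
Hist3h2a (H2A, chr11:58955172-58955187, plus strand): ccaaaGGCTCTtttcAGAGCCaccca
Hist1h2bg (H2B, chr13:23571843-23571858, plus strand): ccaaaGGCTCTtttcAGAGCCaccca
Hist1h3d (H3, chr13:23576244-23576259, plus strand): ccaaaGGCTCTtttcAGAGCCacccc
Hist1h4m (H4, chr13:21812129-21812144, plus strand): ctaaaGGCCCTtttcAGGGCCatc
Hist1h4b (H4, chr13:23757366-23757381, plus strand): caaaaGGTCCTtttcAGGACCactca

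The 16 bases split by class. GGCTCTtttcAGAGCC stood in 25 members, 3 of them H1, 10 H2A, 7 H2B and 5 H3 genes, and in no H4 gene. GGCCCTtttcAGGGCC stood in 7 members, all of them H4 genes. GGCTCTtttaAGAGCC stood in 6 members (1 H1, 2 H2B and 3 H3 genes), and the other 5 forms stood in 1 or 2 members each. In all, 45 of 67 members had the element, the first base 21 to 58 bases after the stop codon (median 31). A further 15 had no annotated 3′ untranslated region of 16 bases or more, so it could not be looked for, and 7 had a longer one with no match to the search form. Within the first 100 bases after the stop codon, and where that many are annotated, 26 of 31 members (83.9%) had the histone 3′ stem-loop, searched on the sense strand. The same search matched 3 of 19699 other protein-coding genes (0.0152%). These 3 were Nemp1, H2bfm and H2afx, the histone of the DNA damage mark.

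Chromatin RNA from the histone genes was scarce. The level of each gene was set against the reference gene, the median of 8765 nuclear protein-coding genes with a mean of at least 1 TPM (the deposited abundance per length and depth). The reference gene stood at 7.56, 6.64 and 6.56 TPM in replicates 1, 2 and 3. A gene was called higher or lower where limma's treat test put its level more than 2-fold from the reference gene at a Benjamini-Hochberg adjusted p under 0.05. No member was called higher, against 15.1% of all 18422 genes tested, 56 members (83.6%) were called lower, against 52.5% of all genes, and 11 were called neither. Of 12312 protein-coding genes tested 19.5% were called higher and 44.6% lower. Other genes were tested from a mean of 0.1 TPM, and 49 of the 60 members at or above that mean (81.7%) were called lower.

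The median member had 0.45, 0.93 and 0.50 TPM in replicates 1, 2 and 3. On the log2(TPM + 0.1) scale the median member differed from the reference gene by -3.80, -2.71 and -3.47, with a mean of -3.33 ± 0.56 (SD, n = 3). The median of the protein-coding genes tested differed from the reference gene by -1.07 ± 0.013 (SD, n = 3). The medians of the members lay lower in each of the 3 libraries. In bulk libraries, few cells with much of a transcript and many cells with little of it cannot be told apart.

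Depth set the limit for most members. All 67 together held 520.5, 892.5 and 668.6 expected counts in replicates 1, 2 and 3, of 12699813, 18280033 and 18087091 in the libraries. Those are 0.00410% (95% exact binomial interval 0.00376 to 0.00447), 0.00488% (0.00457 to 0.00521) and 0.00370% (0.00342 to 0.00399) of the counts. Intervals here cover counting error only. 11 members had at least 10 counts in all 3 libraries, 39 had at least 1 in all 3, and 17, 10 and 10 members were at 0 counts in replicates 1, 2 and 3. For those at 0 the upper limit from counting error alone, 3 counts of the total, is 2.36e-05%, 1.64e-05% and 1.66e-05% of all counts. Reads that match several genes can have been assigned to another gene, so this limit does not bound members with near copies. Hist2h2aa1, the twin of Hist2h2aa2, had 0 counts in replicate 1, but its deposited credibility interval there reached 2.31 TPM. Hist1h2aa, Hist1h2ba and Hist1h2bp had no count in any library, and Hist1h2aa and Hist1h2ba encode testis histones. Hist1h1t, the testis linker histone, had 0, 2 and 1 counts.

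**Figure D1:**
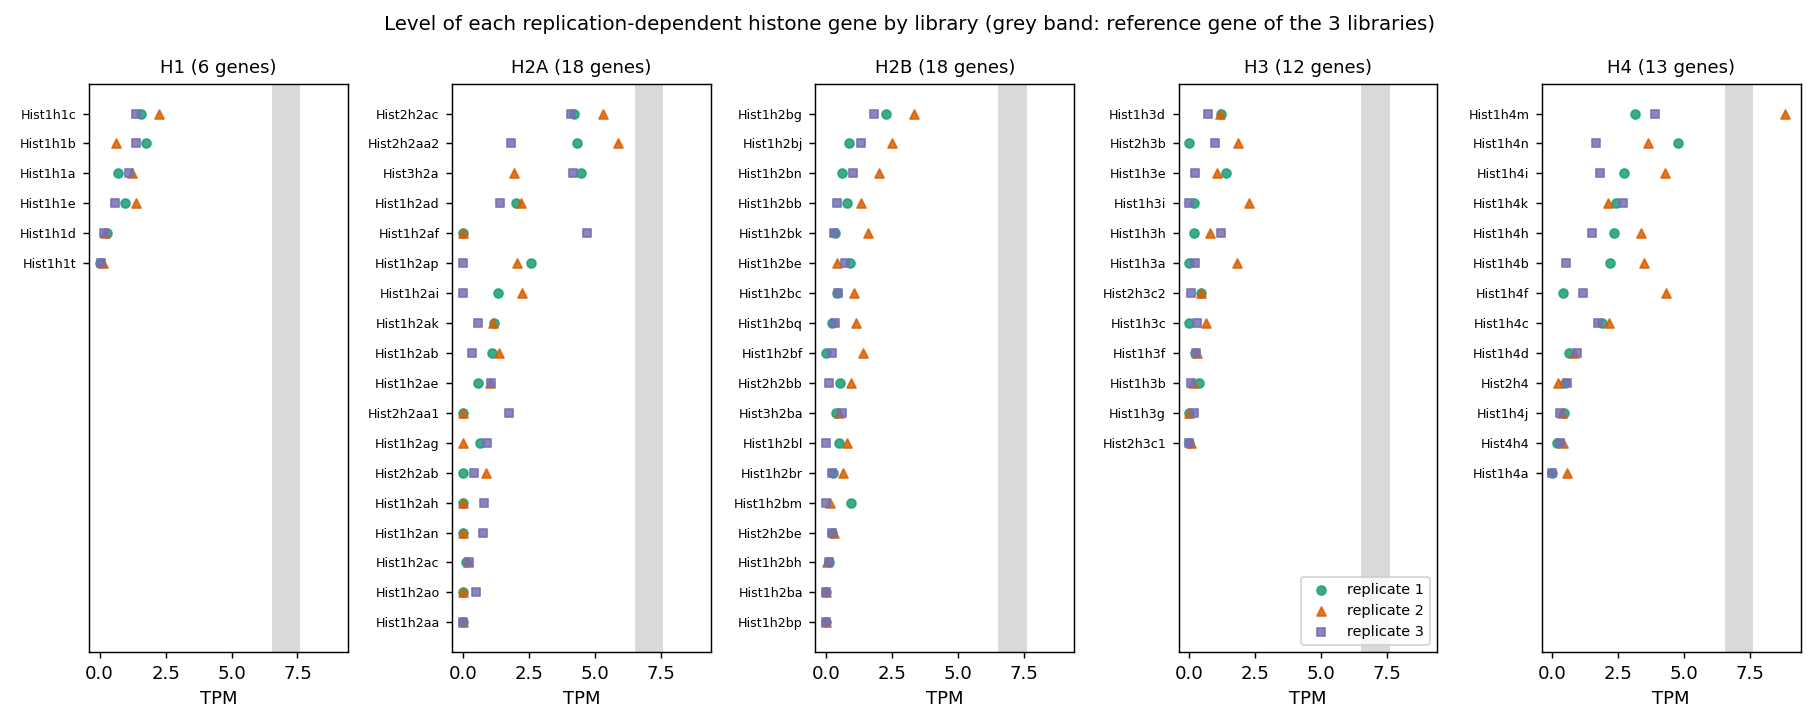
Level of each of the 67 histone genes in TPM (x axis), 1 row per gene and 1 panel per class, with 1 point per library and the reference gene of the libraries as a grey band from 6.56 to 7.56 TPM. Nearly all points lie left of the band, and the point furthest right is Hist1h4m in replicate 2 at 8.82 TPM.

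H4 genes were the best represented class per gene. The 13 H4 genes summed to 21.5, 34.5 and 16.9 TPM in replicates 1, 2 and 3, and 7 of the 13 were called lower. Hist1h4m stood at 3.12, 8.82 and 3.90 TPM, the highest mean of any member in the gene table (5.28 ± 3.09, SD, n = 3). In the alignment-free table, made from the reads without alignment, its mean was 3.09 TPM, below 5.39 TPM for Hist2h2ac. With counts per annotated length its level was -1.02, below -0.52 for Hist3h2a and -0.75 for Hist2h2ac (log2). In the gene table Hist1h4m is the single member that exceeded the reference gene in a library, replicate 2. Its level was -0.53 ± 0.33 (log2, SE) from the reference gene (limma treat, adjusted p = 1). Its near copy Hist1h4n stood at 4.75, 3.61 and 1.64 TPM, lowest in replicate 3, while Hist1h4m was lowest in replicate 1, and 89.8% of the 50-base windows of Hist1h4m also occur in Hist1h4n. The sum of both genes was 7.87, 12.43 and 5.54 TPM.

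Other H4 genes spread from near even to uneven levels. Hist1h4i stood at 2.71, 4.28 and 1.81 TPM, and Hist1h4h at 2.34, 3.35 and 1.48 TPM, both highest in replicate 2. Hist1h4k and Hist1h4c were the most even, at 2.39, 2.10 and 2.69 TPM and at 1.89, 2.14 and 1.72 TPM. Both were called lower, at -1.50 ± 0.18 and -1.80 ± 0.18 (log2, SE; limma treat, adjusted p = 0.0266 and 0.00532). The annotated Hist1h4k transcript has 312 bases and the deposited effective length is 110, 86.7 and 95.7 bases, so its TPM rests on 3.64, 4.16 and 5.45 counts. Hist1h4f at 0.40, 4.32 and 1.15 TPM and Hist1h4b at 2.18, 3.46 and 0.51 TPM had the widest spread of log2 CPM among the H4 genes named here (SD 1.16 and 0.89, against 0.77 for Hist1h4m, the widest in TPM). Both were called neither, with mean differences of -2.32 ± 0.62 and -2.04 ± 0.49 (log2, SE; limma treat, adjusted p = 0.0621 and 0.0620). Several of these calls changed with the replicates or the table used. Without replicate 2 Hist1h4i, Hist1h4h, Hist1h4b and Hist1h4f were called lower (limma treat, adjusted p = 0.0380, 0.0183, 0.0217 and 0.00774). With all libraries, Hist1h4h, Hist1h4b and Hist1h4f were also called lower in the alignment-free table (limma treat, adjusted p = 0.0116, 0.0420 and 0.0293). Hist1h4i was not (limma treat, adjusted p = 0.0948). The call of Hist1h4k was lost without any 1 of the libraries (adjusted p = 0.0973, 0.0846 and 0.0671 without replicates 1, 2 and 3, limma treat).

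H2A genes made up a like amount in sum, 22.6, 24.3 and 23.7 TPM in replicates 1, 2 and 3, with a mean of 23.5 ± 0.87 TPM (SD, n = 3). Of 18 H2A genes 14 were called lower. Hist2h2ac stood at 4.23, 5.32 and 4.09 TPM, with a mean of 4.55 ± 0.67 (SD, n = 3), and was called neither at -0.60 ± 0.17 (log2, SE; limma treat, adjusted p = 1). Hist2h2aa2 stood at 4.31, 5.90 and 1.84 TPM, but its sequence has no 50-base window of its own. Its twin Hist2h2aa1 was at 0, 0 and 1.77 TPM, and both together at 4.31, 5.90 and 3.61 TPM.

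Hist3h2a, a core H2A gene outside the large clusters, had its lowest level in replicate 2. It stood at 4.49, 1.95 and 4.16 TPM on 120, 84.6 and 169 counts in replicates 1, 2 and 3, the most counts of any member. The deposited credibility interval in replicate 2, 1.41 to 2.29 TPM, did not reach the intervals of 3.28 to 4.83 TPM in replicate 1 and 3.31 to 4.53 TPM in replicate 3. It overlaps Trim17, a ubiquitin ligase gene on the same strand, with which it shares 31.5% of its 50-base windows. Trim17 stood at 2.59, 1.40 and 1.69 TPM, and the part of reads from Trim17 in the Hist3h2a value was not tested. Without Hist3h2a the other 66 members held 0.00315%, 0.00442% and 0.00276% of the counts.

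Several of the remaining H2A genes are near copies of each other. Hist1h2ad stood at 2.00, 2.20 and 1.42 TPM and was called lower (-1.85 ± 0.20, log2, SE; limma treat, adjusted p = 0.00606). Hist1h2af was listed at 0, 0 and 4.71 TPM, Hist1h2ai at 1.32, 2.24 and 0 TPM, and Hist1h2ap at 2.58, 2.07 and 0 TPM, with 6.00%, 9.88% and 6.93% of windows unique to each gene. Hist1h2af and Hist1h2ai were called lower (limma treat, adjusted p = 0.0340 and 0.0347). Without replicate 1 both calls were lost (adjusted p = 0.212 and 0.103, limma treat), and without replicate 2 that of Hist1h2af (0.135). Summed with Hist1h2ah and Hist1h2an, the genes Hist1h2ad, Hist1h2af and Hist1h2ai gave 3.32, 4.44 and 7.70 TPM, and the alignment-free table gave 5.02, 4.11 and 5.08 TPM for the same 5 genes. Hist1h2ap with its copy Hist1h2ao gave 2.58, 2.07 and 0.50 TPM. Neither sum was 0 in any library. The SD of the 5-gene sum was 2.275 TPM, below that of Hist1h2af alone (mean 1.57 ± 2.72, SD, n = 3). It was above that of the other genes in the sum, such as Hist1h2ai (SD 1.13). For Hist1h2ap alone the SD was 1.37 TPM, against 1.08 for its sum with Hist1h2ao.

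H2B, H3 and H1 genes gave lower sums, over 18, 12 and 6 genes. The median gene of H1 had a mean of 0.99 TPM, close to the 0.92 TPM of H2A, against 0.54 TPM for H2B and 0.49 TPM for H3. The 18 H2B genes summed to 9.35, 18.15 and 7.95 TPM, and 17 were called lower. The exception was Hist1h2bg at 2.26, 3.34 and 1.80 TPM, which missed the threshold at -1.49 ± 0.23 (log2, SE; limma treat, adjusted p = 0.0578). Without replicate 2 it was called lower (-1.75; limma treat, adjusted p = 0.0200). The 12 H3 genes summed to 3.94, 10.51 and 4.16 TPM and all 12 were called lower. Their highest member, Hist1h3d, stood at 1.19, 1.16 and 0.70 TPM (-2.68 ± 0.23, log2, SE; limma treat, adjusted p = 0.000805).

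The 6 linker histone genes summed to 5.26, 5.85 and 4.71 TPM and all 6 were called lower. Hist1h1c, a linker histone of many somatic tissues, stood at 1.56, 2.26 and 1.39 TPM on 29.0, 67.9 and 38.99 counts (-1.96 ± 0.22, log2, SE; limma treat, adjusted p = 0.00572). H1 genes are the members easiest to tell apart, with a median of 98.9% unique windows, against 27.0% for H2A, 52.5% for H2B, 38.02% for H3 and 60.5% for H4.

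As shares of the summed histone TPM, H2A held 34.5% ± 7.71, H4 33.6% ± 3.78, H2B 16.1% ± 2.98, H3 8.27% ± 2.64 and H1 7.62% ± 1.17 (SD, n = 3). The shares of H2A and H4 differed by less than their spread. H2B exceeded H3 in each library, with 18 genes against 12. In the alignment-free table the shares were 34.03% for H2A, 29.9% for H4, 21.2% for H2B, 7.10% for H3 and 7.73% for H1.

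**Figure D2:**
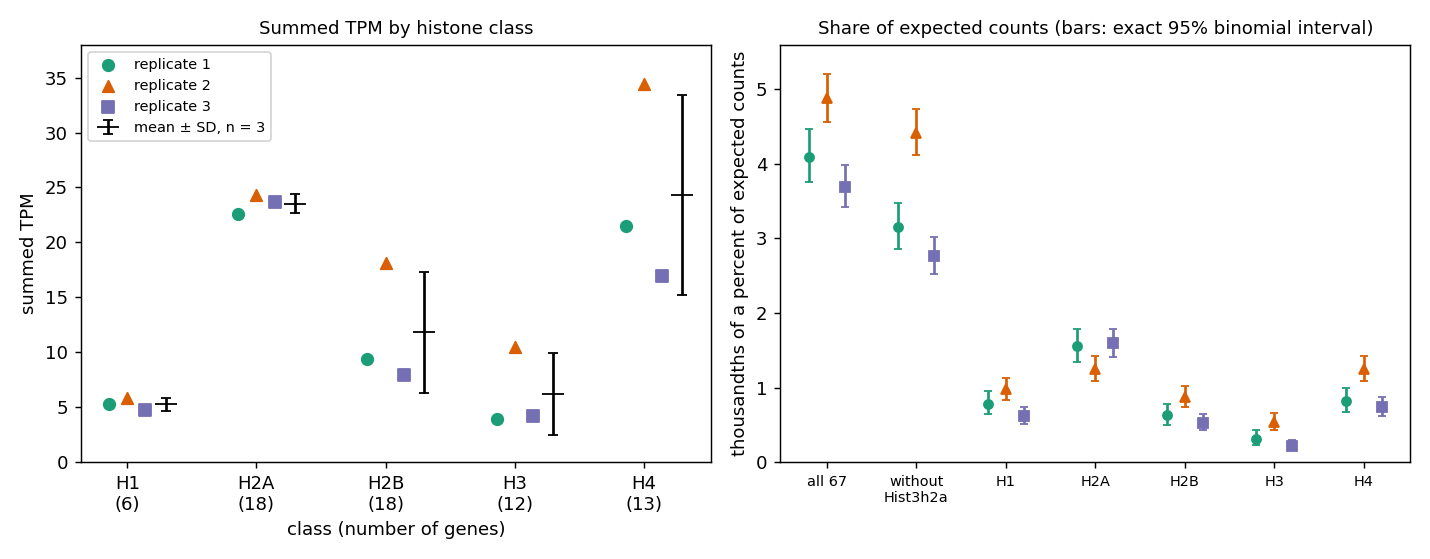
Left, summed TPM of each histone class in each library, with the mean and SD of 3 libraries beside the points. Right, the share of all expected counts held by all 67 genes, by the 66 without Hist3h2a and by each class, with exact 95% binomial intervals, where replicate 2 is highest except in H2A.

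Replicate 2 held more histone RNA than the other libraries in the gene table. All members together summed to 62.7, 93.3 and 57.4 TPM in replicates 1, 2 and 3, and 20, 33 and 21 members reached 1 TPM. Of 64 members with counts, 37 (57.8%) had the highest TPM in replicate 2, against 27.2% of protein-coding genes. The summed TPM of every class was highest in replicate 2, for H2A by a small margin. These TPM also depend on the deposited effective length. It was 192 bases in replicate 1 and 162 in replicate 2 for Hist1h4m, and 7212 and 7177 for the long Hist1h1d. Equal counts therefore give a short gene more TPM in replicate 2, and the part of this in the comparison with protein-coding genes was not tested.

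In the alignment-free table the sums set replicate 2 apart from replicate 3 but not from replicate 1. There the members summed to 73.4, 73.6 and 53.6 TPM in replicates 1, 2 and 3 and held 0.00486%, 0.00491% and 0.00412% of the counts, so replicates 1 and 2 differed by less than their counting intervals (0.00455 to 0.00517 and 0.00466 to 0.00516). Of 63 members 25 (39.7%) had the highest TPM in replicate 2, against 8.03% of protein-coding genes. Another 25 members (39.7%) were highest in replicate 1 there, against 76.5% of protein-coding genes.

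On counts scaled by TMM, which sets the libraries to a common level over most genes, replicate 2 was also highest. 15 members passed edgeR's count filter, a minimum of 10 counts scaled to library size, so Hist4h4 passed with 7 counts in replicate 1. Their median log2 CPM deviated by -0.18, 0.37 and -0.21 from the mean of the libraries in replicates 1, 2 and 3. The medians over all 12931 genes were at most 0.0155 from 0. 13 of the 15 were above their mean in replicate 2. With alignment-free counts the median deviations were -0.15, 0.29 and -0.15. The pair below the mean was Hist3h2a (-0.63) and Hist1h2be (-0.47), an H2B gene that overlaps Hist1h1e on the same strand, named after its values were seen. In the gene table an isoform of Hist1h2be annotated as a processed transcript, not as coding, held 64.6%, 60.9% and 84.5% of its TPM in replicates 1, 2 and 3. The median SD of the 15 members over the libraries was 0.42, against 0.27 for all genes. Without replicate 2 the count filter was applied anew, so the members that passed need not be these 15. The median SD of those members was 0.10, against 0.19 for all genes, and cannot be set directly against 0.42. The deviation in replicate 2 was largest for Hist1h4m (0.85), Hist1h1e (0.68), Hist1h4i (0.68) and Hist2h2aa2 (0.68), of which Hist1h1e, a linker histone gene, was also named after its values were seen.

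Among genes passing the count filter, several other gene groups moved with replicate 2 to a smaller degree. 32 DNA replication genes deviated by -0.22, 0.18 and -0.06 (log2 CPM, medians in replicates 1, 2 and 3), and 23 of them were above their mean in replicate 2. Without the filter these genes came closer to the members. Their median in replicate 2 was then 0.33, with 29 of 38 above their mean, against 0.41 and 47 of 64 for the members. 29 filtered histone mRNA processing genes deviated by -0.09, 0.10 and 0.03, with 21 above their mean in replicate 2. The 10 macrophage markers deviated by -0.14, 0.13 and -0.15, all 10 being above their mean in replicate 2, and 14 histone chaperone genes by -0.12, 0.14 and -0.02. 6 replication-independent histone genes went the other way, at 0.19, -0.13 and 0.04. Replicate 2 was made from the least RNA, 250 ng, and the part of RNA amount or of the library in the histone values cannot be told apart from the replicate.

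**Figure D3:**
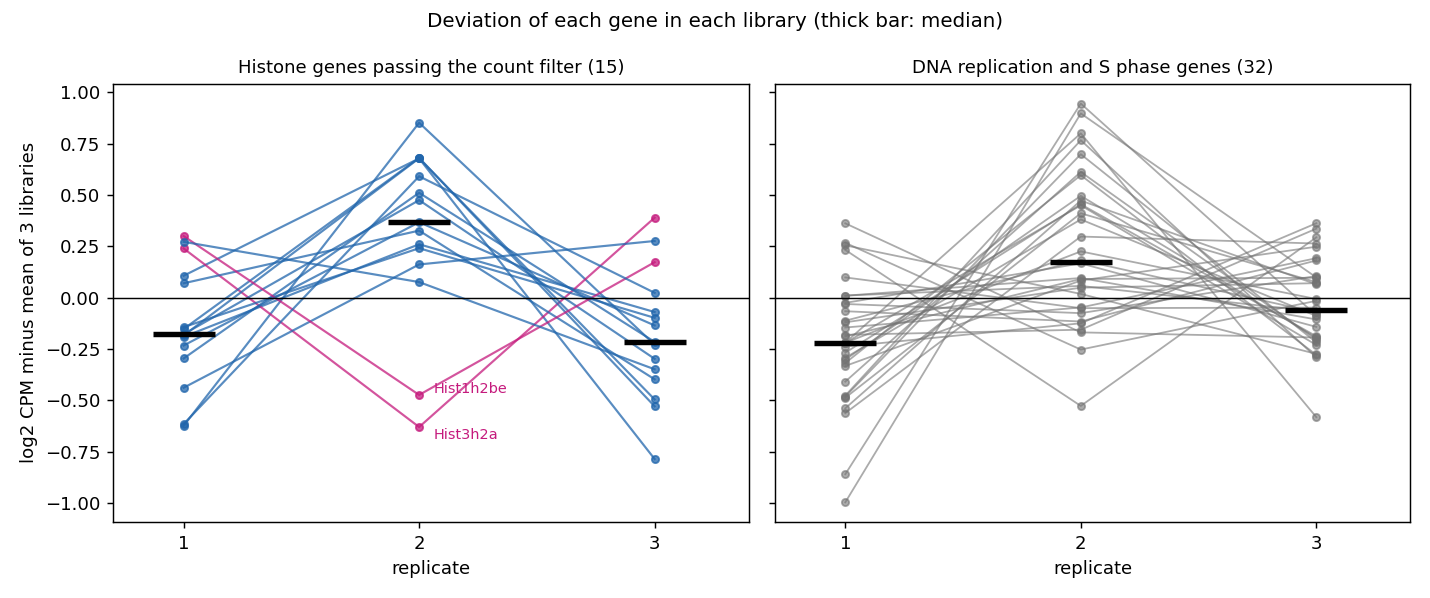
Log2 CPM of each gene minus its mean over the 3 libraries (y axis) by replicate (x axis), with 1 line per gene to join its values and a thick bar for the median. Left, 15 histone genes, of which Hist3h2a and Hist1h2be are coloured and fall below 0 in replicate 2. Right, 32 DNA replication and S phase genes, whose median in replicate 2 is 0.18.

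The libraries held the RNA of macrophages by their markers. Of 10 macrophage genes 8 were called higher and none lower, against 15.1% higher and 52.5% lower of all genes tested. The highest mean was that of Cd14 at 192, 189 and 242 TPM. All 8 neutrophil, 5 dendritic and 10 mast cell, fibroblast or endothelial markers were called lower, none with a mean above 0.27, 1.85 and 0.86 TPM in these groups, as were 8 of 9 T, B and NK cell markers, the exception being Cd4 at 2.50, 4.28 and 2.11 TPM. Of 8 erythroid and megakaryocyte markers 5 were called lower. The other 3, Pf4, Alas2 and Itga2b, were called neither, with the adult globin gene Hbb-bs at 0. The summed TPM of this marker group was 8.81, 15.88 and 16.28 in replicates 1, 2 and 3, and its part in the histone values was not tested.

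A few histone genes that work outside S phase reached far higher levels. Of 11 replication-independent histone genes 3 were called higher, 6 lower and 2 neither, against 15.1% higher and 52.5% lower of all genes tested. H3f3b, one of the genes for the replacement histone H3.3, stood at 124, 101 and 95.8 TPM (3.92 ± 0.12 above the reference gene, log2, SE; limma treat, adjusted p = 4.30e-05). H2afy, one of the macroH2A genes, stood at 62.9, 55.0 and 60.7 TPM, and Cenpa, the centromeric H3 variant, at 57.4, 30.4 and 47.0 TPM. H3f3a, which encodes the same H3.3 protein, was called neither at 21.4, 13.1 and 12.6 TPM. The lowest were H2afy2 at 0.29, 0.36 and 0.10 TPM and H1fx at 0 in every library. H2afx, which shares the stem-loop, stood at 0.49, 0.39 and 0.57 TPM, within the range of the members. The single gene H3f3b thus exceeded all 67 members summed (62.7, 93.3 and 57.4 TPM) in each library, on the per-length scale.

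The genes listed for making or destroying histone messages, which include general RNA factors such as Cdk9, were split. Of 32, 8 were called higher, 11 lower and 13 neither, against 15.1% higher and 52.5% lower of all genes tested. Slbp, Npat, Lsm10 and Lsm11, described below, were not among the 8. The highest were Tut7 at 154, 134 and 123 TPM and Tut4 at 89.4, 69.2 and 73.1 TPM, which in human cells add uridines to RNA ends, and Cdk9, the kinase that releases paused RNA polymerase, at 91.0, 77.3 and 78.5 TPM. Slbp, the stem-loop binding protein, was called neither at 4.89, 4.50 and 5.89 TPM (-0.44 ± 0.16, log2, SE; limma treat, adjusted p = 1).

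Npat, the coactivator that marks histone loci, stood at 1.18, 1.17 and 0.87 TPM and was called lower (-2.59 ± 0.21, log2, SE; limma treat, adjusted p = 0.000661). Lsm11, a protein of the U7 particle, stood at 0.14, 0.08 and 0.13 TPM, and its partner Lsm10 at 2.68, 1.48 and 1.75 TPM, both called lower. The gene of the U7 RNA itself, Rnu7, was listed at 0 in every library, and it is a short noncoding RNA. Slbp, Npat and Lsm10, as well as H3f3a and H2afx above, were chosen for their roles after the values were seen.

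Of 39 DNA replication and S phase genes 28 were called lower, 10 neither and 1 higher. Of all genes tested 52.5% were called lower and 15.1% higher. The 1 higher on this list was Tk1, the thymidine kinase of S phase, at 38.9, 26.5 and 21.8 TPM (2.02 ± 0.16, log2, SE; limma treat, adjusted p = 0.00122). Pcna, the sliding clamp, at 23.96, 10.2 and 14.5 TPM and Pola1, the catalytic subunit of primase-polymerase alpha, at 9.91, 9.77 and 8.91 TPM were called neither. The lowest were Rfc4 at 0.07, 0.09 and 0 TPM and Fen1, listed at 0. The share of this list called lower was below that of the histone members, 28 of 39 and 56 of 67, and that difference was not tested. Of 15 histone chaperones, which carry histones to DNA, 1 was called higher, 3 lower and 11 neither, beside those same shares of all genes. Atrx, a remodeller that deposits H3.3, was the one higher at 250, 190 and 187 TPM, followed by Supt16 at 15.3, 12.8 and 12.8 TPM and Daxx at 16.4, 9.67 and 11.9 TPM. The lowest were Chaf1a, of the replication-coupled assembly factor, at 1.14, 1.05 and 0.95 TPM and Asf1b at 0.05, 0.34 and 0.19 TPM.

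**Figure D4:**
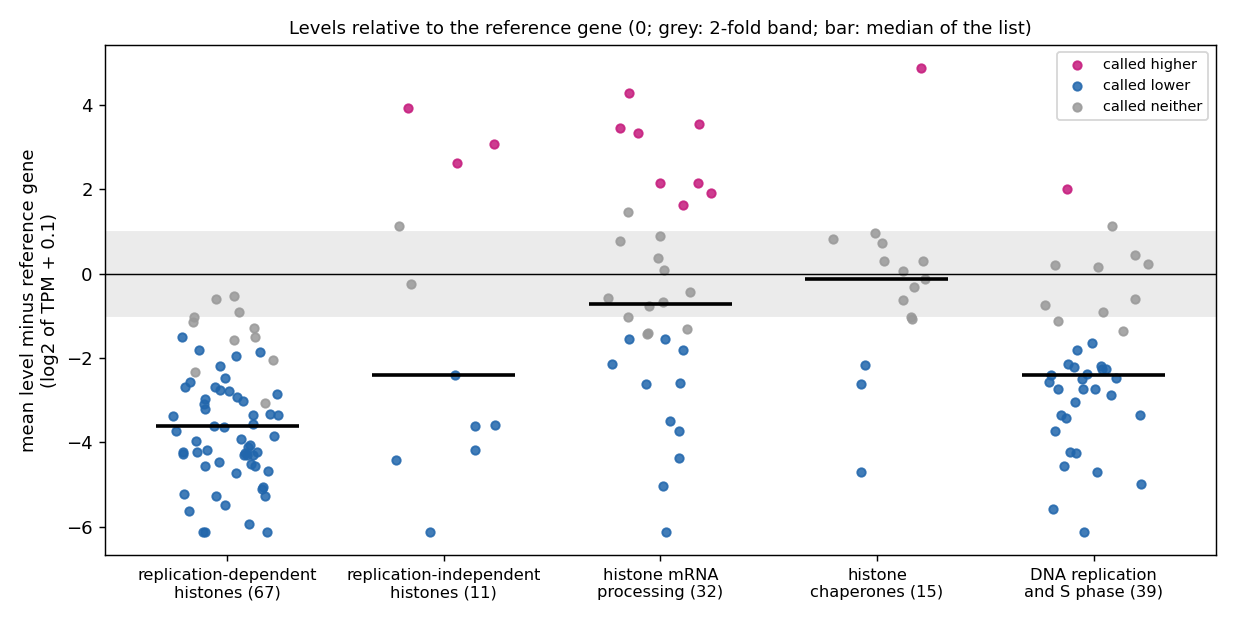
Mean level of each gene minus the reference gene, on the log2(TPM + 0.1) scale (y axis), for the replication-dependent histone genes and 4 lists, coloured by call, with a bar at the median of each list and the 2-fold band in grey. None of the 67 histone genes is called higher, where 3, 8, 1 and 1 genes of the other lists are.

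How far the annotated transcript runs past the stem-loop varied. In 22 members it ended within 100 bases of the stem-loop, in 23 it ran on for longer, and in 9 of these for over 1000 bases. In the gene table the genes running on had a median of 0.49 TPM, with 20 of 23 called lower. Those ending close had 0.90 TPM, with 14 of 22 called lower. The 22 in which no element was found had 0.61 TPM, with 22 of 22 called lower. For 15 of these 22 too little 3′ untranslated region is annotated to look for it. The order of the first pair turned round in the alignment-free table. The medians there were 0.84 TPM for genes running on, 0.74 TPM for those ending close and 0.65 TPM where none was found. Where the reads lie within a gene was not measured.

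The 2 kinds of table differed most for a few genes. Over 44 members with at least 10 counts, the alignment-free counts were 1.30 times the gene table counts (median), against 1.68 times for 11842 protein-coding genes. In 7 of the 44 members they were at least 2 times as high. The share of protein-coding genes at that ratio is not given here, so 7 cannot be called many or few. Hist1h1d, a linker histone gene whose annotated transcript has 7425 bases and runs 4884 bases past the stem-loop, had 30.0, 34.1 and 24.2 counts in the gene table and 164, 190 and 230 in the alignment-free table. Hist4h4, the single member on chromosome 6, has a transcript of 2863 bases. It stood at 0.19, 0.40 and 0.27 TPM in the gene table and at 1.10, 0.98 and 1.10 TPM in the alignment-free table. Hist1h2bh, an H2B gene under 1 TPM in both tables and named after its values were seen, differed most in relative terms. It had 2, 1.02 and 4 counts in the gene table and 23.2, 33.7 and 41.3 in the alignment-free table, and its transcript runs 1214 bases past the stem-loop. Hist2h2ab was likewise lower in the gene table, at 0, 0.87 and 0.44 TPM there and 1.47, 1.93 and 1.76 TPM in the alignment-free table, though its transcript has 444 bases. It overlaps Gm15444 on the other strand, which shares 64.6% of its windows.

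**Figure D5:**
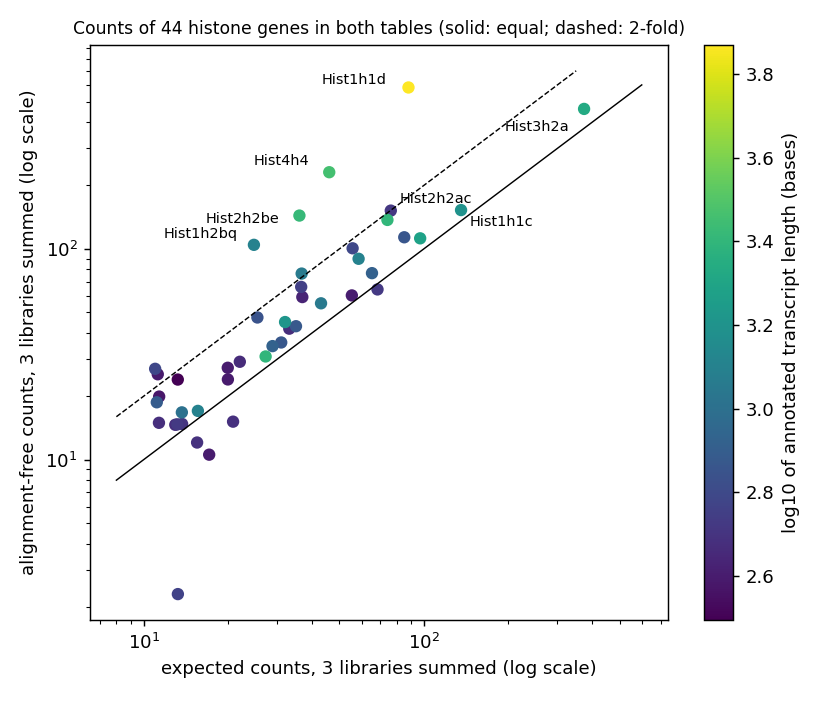
Alignment-free counts (y axis) against gene table counts (x axis), both summed over 3 libraries on log scales, for 44 histone genes with at least 10 counts, coloured by transcript length, with lines for equal and for 2-fold counts. Hist1h1d, Hist4h4, Hist2h2be and Hist1h2bq lie well above the 2-fold line, and Hist3h2a and Hist1h1c lie close to the line of equal counts.

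Similarity between the genes limits single values more than sums. The median member had 45.9% of its 50-base windows to itself, 34 of 67 had under 50%, 13 under 10% and 6 none, and 4 had only unique windows. 24 members overlap another annotated gene. The deposited credibility intervals of TPM overlapped between all libraries for 60 members. The share over all genes is not given here, so this number cannot be called high or low. The 7 for which a pair of libraries did not overlap were Hist3h2a, Hist1h4i, Hist1h4f, Hist1h2af, Hist1h1e, Hist1h3e and Hist1h3a, listed after their values were seen. For Hist1h4f the interval was 2.38 to 6.56 TPM in replicate 2, above 0.017 to 1.75 TPM in replicate 1.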

How the data were processed

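Per the deposited notes and the file headers, the tables of each library refer to mm10 and annotation release M21. The authors deposited expected counts, TPM and FPKM per gene and transcript from alignments to the transcriptome, and estimated counts and TPM per transcript made from the reads without alignment (the alignment-free table). Which programs made them is not given in the sources used here, but the column names match RSEM and kallisto. The expected counts that the authors deposited divide reads among matching transcripts, and they were rounded for count-based steps. FPKM deposited by the authors was not used. How strand was counted is not stated, so overlapping genes are uncertain, and unspliced RNA was not measured apart.

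The deposited tables held 55536 annotated genes, 26248 tRNA rows, 96 ERCC rows and 1 phiX row. The last 3 kinds held 1.26%, 0.223% and 0.200% of the counts in replicates 1, 2 and 3; they entered library totals but no test. Levels were log2(TPM + 0.1) minus the median of 8765 nuclear protein-coding genes whose mean reached 1 TPM, taken per library, a scale that understates differences of genes near 0. They were tested two-sided with limma 3.58.1 (treat, 2-fold band, trended variance, Benjamini-Hochberg over 18422 genes, called at 0.05) in R 4.3.3. Genes tested had a mean of at least 0.1 TPM or were on a list. With 3 libraries an exact sign-flip permutation test cannot go below 0.25, so none was used. Spread was described with edgeR 4.0.16 (TMM; filterByExpr, minimum count 10; log2 CPM, prior count 2; common biological coefficient of variation 0.219) and with DESeq2 1.42.0 size factors as an alternative. Scripts were tested on simulated data.

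The stem-loop was searched in the longest protein-coding M21 transcript of each gene. A 50-base window was called unique where it occurs in no transcript of another gene on either strand. Members were named by rule: the 15 with the highest mean TPM, the highest of each class and cluster, the 5 with the largest difference between tables among those with a mean of at least 1 TPM in either table, and the 5 with a mean of at least 1 TPM and the largest SD. Of other lists the 3 highest and 2 lowest genes of lists of at least 10, the highest of smaller ones, and genes called against most of the list were named. Zcchc11 and Zcchc6 were matched by synonym to Tut4 and Tut7. The members and lists were chosen with earlier results of these data known. Alternatives changed the pseudocount, the filter, the table, the length used, the band, the reference genes, the scaling and the replicates.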

Additional observations from a re-analysis of the deposited data

How the results depend on the processing

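No histone member was called higher under any alternative tried, and the number called lower ranged from 41 with a 4-fold band to 66 with no band or with reference genes from a mean of 5 TPM. It was 9 where only the 22 members with a mean of at least 1 TPM were tested. The median level of the members was -2.29 with a pseudocount of 1 TPM, -1.81 over members with a mean of at least 1 TPM and -4.52 with reference genes from a mean of 5 TPM, where the reference itself is higher. Leaving out each replicate gave 49 to 59 members called lower, median levels of -3.64 to -3.09, a median SD of 0.10 to 0.402, and median deviations of -0.16 to 0.06 in replicate 1, 0.16 to 0.25 in replicate 2 and -0.25 to -0.06 in replicate 3. The lowest SD was that without replicate 2, and the count filter was applied anew to each pair of libraries, so the members differ.

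Replication-independent histones called lower were 1 with a mean of at least 1 TPM. Histone mRNA processing genes called higher were 4 with the 4-fold band and 4 with reference genes from 5 TPM, and those called lower were 6 with a mean of at least 1 TPM, 7 with the 4-fold band, 18 with no band and 18 with reference genes from 5 TPM. DNA replication genes called higher were 2 in the alignment-free table, 2 per annotated length, 3 with no band, 0 with the 4-fold band and 0 with reference genes from 5 TPM, and those called lower were 12 with a mean of at least 1 TPM and 16 with the 4-fold band. A narrower band or filter changes these counts by construction; the cause was otherwise not tested. The share of H2B was 21.2% in the alignment-free table, and the mean share of counts was 0.00345% without Hist3h2a, an alternative chosen after seeing the data. Of 21 named members, 6 kept their direction but lost their call with the 4-fold band and 10 gained one with no band. None changed direction under any alternative. No paired analysis was possible because the series has 1 group. Depth limits single values, as 11 of 67 members had at least 10 counts in all libraries.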
